A study of Homo sapiens with 6 samples.

Results

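CLDN4 and 8 other tight junction genes, 9 of the 50868 genes listed, were examined in HCT116, an established line of human colorectal carcinoma cells, after overexpression of the transcription factor YY2. The genes are the claudins CLDN1, CLDN2, CLDN3, CLDN4, CLDN7 and CLDN12, the membrane proteins occludin (OCLN) and F11R, and the scaffold protein TJP1. They were taken by name, because CLDN4 was already known to be much higher in these YY2 samples, to ask whether other claudins, and above all its chromosome 7 neighbour CLDN3, were higher with it. The values that chose CLDN4 are those of the comparison described here, so the values of the 9 genes are given as a description, without p-values. Where a member is said to pass or not to pass the test described below, this too is description and no support for a change.

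RNA-Seq compared 3 samples of cells transfected with a YY2 expression plasmid (pcYY2) with 3 samples transfected with the empty plasmid pcDNA3.1(+) (pcCon). Both groups are the same cell line without any other genetic change named in the labels, and the share of cells that took up the plasmid is not given in the sources used here. Nothing in the labels says whether the samples of a group came from separate cultures, so p-values measure only the spread between these samples, which may be technical.

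Tight junctions seal the space between neighbouring epithelial cells near their apical side. Claudins are small membrane-spanning proteins that polymerize into the junction strands, and the set of claudins a cell makes decides which ions can pass between cells. Occludin and F11R (JAM-A) are further membrane proteins of the junction, and TJP1 (ZO-1) ties the strands to actin. CLDN3, CLDN4 and CLDN7 are abundant in intestinal epithelium, while CLDN2 forms channels for cations.

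CLDN3 and CLDN4 lie next to each other on chromosome 7 (GRCh38), CLDN3 on the minus strand at chr7:73768997-73770270 and CLDN4 on the plus strand at chr7:73799542-73832693. Their starts face away from each other and are 29272 bases apart in GENCODE 44. The CLDN4 protein is encoded within a single exon, at chr7:73831202-73831828, and the start that RefSeq gives for CLDN4 lies 60726 bases from the start of CLDN3. The 250 bases before each RefSeq start are shown because the question is whether the genes of this pair changed together. Capitals mark matches, on either strand, to CCAT (the core bound by YY1 and YY2), to CCATNTT (a longer form of it, which contains CCAT), to GGGCGG (the Sp1 box), to TGANTCA (the AP-1 site) and to CACCTG (the E-box bound by Snail factors). The stretch of CLDN4 is chr7:73830746-73830995 on the plus strand and that of CLDN3 is chr7:73770271-73770520 on the minus strand, both from RefSeq on GRCh38.p14.
CLDN4: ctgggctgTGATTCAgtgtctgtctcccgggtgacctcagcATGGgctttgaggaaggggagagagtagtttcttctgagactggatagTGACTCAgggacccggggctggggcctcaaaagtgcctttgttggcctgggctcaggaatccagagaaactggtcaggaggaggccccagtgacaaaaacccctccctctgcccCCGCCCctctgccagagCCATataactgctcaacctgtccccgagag
CLDN3: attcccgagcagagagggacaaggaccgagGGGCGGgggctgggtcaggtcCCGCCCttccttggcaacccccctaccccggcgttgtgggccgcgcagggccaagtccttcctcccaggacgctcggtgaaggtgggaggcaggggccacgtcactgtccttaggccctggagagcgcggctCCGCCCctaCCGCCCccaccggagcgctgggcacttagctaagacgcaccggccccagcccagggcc

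The CLDN4 stretch held CCAT 2 times, TGANTCA 2 times and GGGCGG once. The CLDN3 stretch held GGGCGG 4 times and none of the other 4 motifs. Over 27305 promoter stretches of the same length, 71.9% held CCAT, 11.7% CCATNTT, 42.3% GGGCGG, 6.6% TGANTCA and 17.5% CACCTG. Of the 8 members with a promoter in the table (F11R has none), CCAT was found in 5, GGGCGG in 5, TGANTCA in 2 (CLDN2 and CLDN4), CACCTG in 2 (OCLN and TJP1) and CCATNTT in 1 (CLDN2). These matches are letters in a window and not sites shown to be bound. GC content was 58.8% in the CLDN4 stretch and 71.6% in the CLDN3 stretch.

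Since CLDN3 and CLDN4 are related in sequence, the stretches of sequence whose reads could fall to either gene were counted first. Their coding stretches were identical at 490 of 624 aligned bases, or 78.5%. The longest run they share is 71 bases, and it is shown because reads lying within it fit both genes. It lies at chr7:73831352-73831422 (plus strand) in CLDN4 and at chr7:73769832-73769902 (minus strand) in CLDN3.
CLDN3 and CLDN4: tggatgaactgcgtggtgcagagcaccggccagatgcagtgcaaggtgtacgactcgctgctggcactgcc

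Of the 4734 stretches of 50 bases in the exons of CLDN4, 29 (0.613%) occur in the exons of another gene. In CLDN3, 22 of 1225 (1.8%) do, all of them in CLDN4. No other gene listed in the deposited data overlaps CLDN3 or CLDN4. The share of such stretches was 36.2% in F11R, most of them in a readthrough gene that joins it to its neighbour, and 15.1% in CLDN12, 8.75% in CLDN2, 8.25% in CLDN7, 6.55% in OCLN and 0 in TJP1 and CLDN1, so F11R and CLDN12 are the members whose counts are most uncertain in this respect.

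Between 15158360 and 29572882 reads were counted per sample. Levels are given as CPM (counts scaled to the total of the sample, with TMM scaling used in the tests only), and 3 counts, taken as the floor of detection, are 0.101 to 0.198 CPM, which covers counting error only. Differential expression was tested with edgeR's quasi-likelihood test over 12015 genes whose FPKM (counts scaled to gene length and to the sample total) averaged at least 1, and genes passed at an adjusted p (Benjamini-Hochberg) of at most 0.05. By this rule 1126 genes, or 9.37%, were differentially expressed, of which 543 (4.52% of those tested) were higher and 583 (4.85%) lower in pcYY2. The plasmid's own gene, YY2, was counted at 6.10, 6.90 and 4.75 CPM in pcCon and at 31.8, 30.4 and 30.2 CPM in pcYY2, a log2 fold change of 2.39 (SE 0.137, adjusted p = 0.00107, edgeR). The cells expressed the epithelial markers: the summed CPM of EPCAM, CDH1, KRT8, KRT18 and KRT19 was 2060 to 2147 in pcCon and 2728 to 3149 in pcYY2. The 7 markers of blood, endothelial and stromal cells summed to 27.1 to 31.5 CPM in pcCon and 31.3 to 41.5 CPM in pcYY2, most of it COL1A1, with DCN at 0 in every sample. Without COL1A1 the ranges were 2.44 to 4.28 and 2.68 to 7.03 CPM. The pcYY2 sample 2 stood apart among them with 69 reads of PTPRC, a leukocyte gene, and 12 reads of CD3E, a T cell gene. The part of these markers in the results was not tested.

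CLDN4 was counted with 40, 43 and 36 reads in the pcCon samples and with 1126, 2778 and 1362 reads in the pcYY2 samples. In CPM these are 2.20, 2.36 and 2.37 in pcCon and 73.5, 93.9 and 74.1 in pcYY2. The pcCon samples lay within a narrow range, and every pcYY2 sample was far above all of them, with sample 2 the highest. The log2 fold change was 5.14 (SE 0.142, 95% interval 4.80 to 5.47), a 35.2-fold difference, which ranked 1 among the 12015 genes by size of increase. Without pcYY2 sample 2, the sample with the leukocyte reads, it was 5.004. CLDN4 passed the filter on FPKM only through the pcYY2 samples, since the deposited FPKM averaged 0.205 in the 3 pcCon samples (SD 0.00869) and 7.14 in the 3 pcYY2 samples (SD 1.03). In these bulk samples, more cells making CLDN4 and more CLDN4 RNA per cell cannot be told apart.

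CLDN3, the neighbour of CLDN4 and likewise a sealing claudin, was at 9.94, 7.95 and 8.11 CPM in pcCon and at 6.79, 8.15 and 6.85 CPM in pcYY2. The groups overlapped, and the pcYY2 mean was slightly the lower of the groups. Its log2 fold change of -0.24 (SE 0.142, 95% interval -0.57 to 0.10) did not pass the test, and the upper end of the interval lies far below the value of CLDN4. Without pcCon sample 1, the highest CLDN3 value, the log2 fold change was -0.13. Counted reads of CLDN4 per read of CLDN3 went from 0.221, 0.297 and 0.293 in pcCon to 10.8, 11.5 and 10.8 in pcYY2. CLDN3 had the more reads in all 3 pcCon samples and CLDN4 in all 3 pcYY2 samples.

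**Figure D1:**
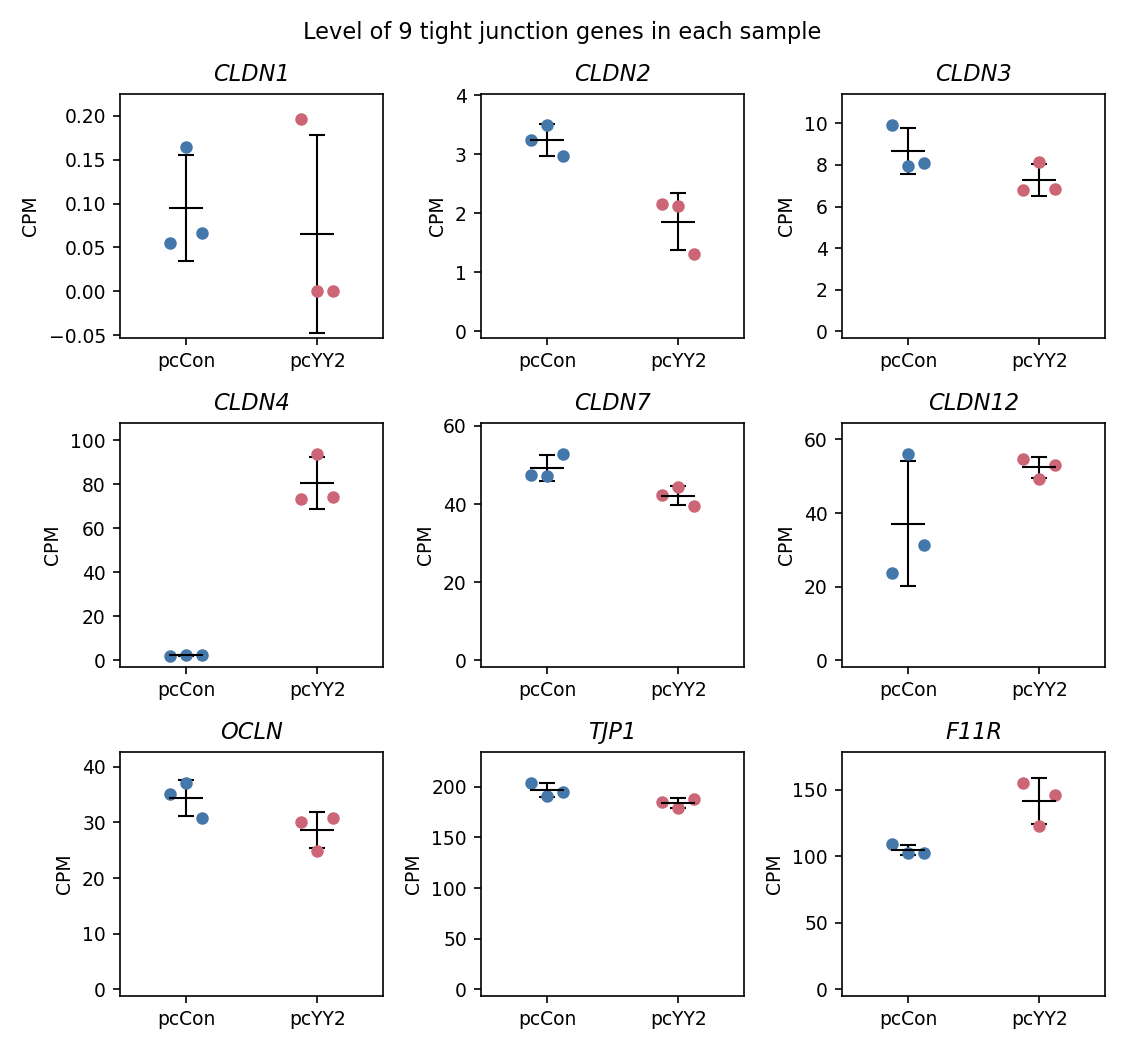
CPM (vertical axes, each starting near 0) of the 9 members in the 3 pcCon and 3 pcYY2 samples, each point a sample and the bars the mean and SD. CLDN4 lies at 2.20 to 2.37 CPM in pcCon and 73.5 to 93.9 CPM in pcYY2, while CLDN3 and CLDN12 overlap between groups and F11R is moderately higher in pcYY2.

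CLDN7, the claudin with the highest level in pcCon, was at 47.4, 47.1 and 52.9 CPM in pcCon and at 42.4, 44.4 and 39.6 CPM in pcYY2. Every pcYY2 sample lay below every pcCon sample, by a small margin. The log2 fold change was -0.21 (SE 0.0771, 95% interval -0.39 to -0.02), which did not pass the test after adjustment. CLDN2, the cation channel claudin, was at 3.24, 3.51 and 2.97 CPM in pcCon and at 2.15, 2.13 and 1.31 CPM in pcYY2. Its groups did not overlap either, with pcYY2 the lower. Its mean FPKM was under 1, and in a wider fit of 18877 genes with FPKM averaging 0.1 or more, of which 910 (4.82%) were differentially expressed, its log2 fold change was -0.75 (SE 0.235, 95% interval -1.30 to -0.21) and did not pass. CLDN2 overlaps MORC4 on the opposite strand, which fell by 0.30 on the log2 scale (adjusted p = 0.0354, edgeR), and whether the counting used the strand is not stated. In GENCODE 44 the exons of CLDN2 and MORC4 share no stretch of 50 bases.

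CLDN12, a widely expressed claudin whose gene overlaps GTPBP10 and CDK14 on the same strand, was at 23.8, 56.2 and 31.3 CPM in pcCon and at 54.8, 49.2 and 53.1 CPM in pcYY2. The pcYY2 samples lay close together, while pcCon sample 2 was higher than all of them and the other pcCon samples were lower. The log2 fold change of 0.51 (SE 0.286, 95% interval -0.17 to 1.19) did not pass the test. It was 0.94 and passed without pcCon sample 2, and 0.27 without pcCon sample 1, so its size rests on which control samples enter. CLDN1 was at the floor, with 1, 3 and 1 reads in pcCon and 3, 0 and 0 reads in pcYY2, and no fold change is given.

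Among the members that are not claudins, F11R, the junctional adhesion molecule JAM-A, was higher in pcYY2. It was at 109, 102 and 103 CPM in pcCon and at 156, 123 and 147 CPM in pcYY2. All pcYY2 samples lay above all pcCon samples, sample 2 by the least. The log2 fold change was 0.45 (SE 0.0896, 95% interval 0.23 to 0.66), a 1.36-fold difference. F11R passed the test, which is description only, as for all members. The call was lost when any 1 of the pcCon samples or pcYY2 sample 1 or 3 was left out, with log2 fold changes of 0.38 to 0.47, and held without pcYY2 sample 2, at 0.54. Its counts share sequence with the readthrough gene described above, which had 10 to 66 reads per sample.

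Occludin was at 35.1, 37.2 and 30.9 CPM in pcCon and at 30.2, 24.9 and 30.7 CPM in pcYY2, and TJP1, the scaffold, at 204, 191 and 195 CPM in pcCon and at 185, 179 and 188 CPM in pcYY2. In both genes the pcYY2 samples lay just below the pcCon samples. The log2 fold changes were -0.26 (SE 0.109, 95% interval -0.51 to 0.00) for OCLN and -0.08 (SE 0.0468, 95% interval -0.19 to 0.03) for TJP1, and neither passed the test.

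In all, 7 of the 9 members were tested, 2 passed (CLDN4 and F11R, both higher) and none was called lower. Over all tested genes 9.37% passed, 4.52% as higher and 4.85% as lower. Beside CLDN4, the 6 tested members had log2 fold changes of -0.26 to 0.51 with a median of -0.14, and the median over all tested genes was 0.00197. The groups of CPM of these 6 members did not overlap in 4 of 6, beside 35.8% of all tested genes. Since the members were chosen from this comparison, nothing is read from these counts.

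Levels of different genes can be compared only per length, for which CPM was divided by the length in kilobases of all exons of the gene in GENCODE 44. In pcCon the members then ranked F11R (20.7 ± 0.776 CPM per kb, SD, n = 3), CLDN7 (19.7 ± 1.31), TJP1 (17.4 ± 0.591), CLDN3 (6.80 ± 0.868), CLDN12 (5.53 ± 2.52), OCLN (3.05 ± 0.285), CLDN2 (0.949 ± 0.0789), CLDN4 (0.491 ± 0.0208) and CLDN1 (0.0262 ± 0.0166). The samples of F11R and CLDN7 overlapped, as did those of CLDN3 and CLDN12, so these neighbours in the order do not differ beyond their spread. In pcYY2 the order began with F11R (28.0 ± 3.37), followed by CLDN4 (17.1 ± 2.48), CLDN7 (16.9 ± 0.975) and TJP1 (16.3 ± 0.424), and the samples of these last 3 overlapped from each gene to the next. CLDN12 (7.81 ± 0.427), CLDN3 (5.70 ± 0.603), OCLN (2.54 ± 0.286), CLDN2 (0.546 ± 0.142) and CLDN1 (0.0180 ± 0.0312) came after them, each below the one before in every sample. CLDN4 thus moved from the eighth place of the members to the level of CLDN7 and TJP1. The place of CLDN4 depends on the length: the deposited FPKM divides its counts by 11275 bases, against 4699 bases for its exons in GENCODE 44 and 1695 bases for its single-exon transcript.

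The summed level of all claudins listed in the table was 40.1 to 42.8 CPM per kb in the pcCon samples and 54.4 to 61.0 in the pcYY2 samples. Without CLDN4 it was 39.6 to 42.3 in pcCon and 38.7 to 41.0 in pcYY2, and the groups overlapped. CLDN4 made up 1.17% to 1.24% of the summed claudin level in pcCon and 28.1% to 32.8% in pcYY2. CLDN7 made up 44.1% to 51.9% in pcCon and 29.2% to 30.6% in pcYY2, CLDN3 14.6% to 19.5% and 9.57% to 10.5%, and CLDN12 8.86% to 19.5% and 12.04% to 14.7%. These are shares of a sum, so a larger share of CLDN4 lowers all others. The shares, and the summed level with CLDN4, also depend on the length taken for CLDN4, here 4699 bases.

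**Figure D2:**
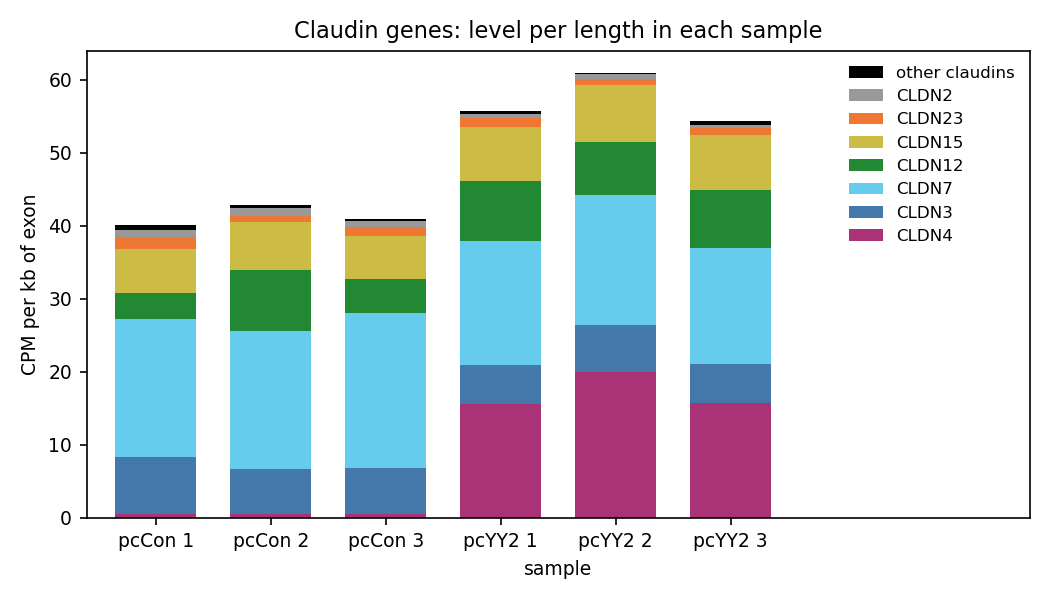
Summed level of the claudin genes in each sample (CPM per kilobase of exon, vertical axis), with a colour for each claudin. The height is 40.1 to 42.8 in pcCon and 54.4 to 61.0 in pcYY2, and without the block of CLDN4 the ranges overlap, at 39.6 to 42.3 and 38.7 to 41.0.

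The other claudins and tight junction genes were described next, to see how the family behaves beyond the members. Of 18 other claudins, 16 had 13 or fewer reads in every sample and were not tested, 7 of them with 0 reads in all samples. The 2 tested were CLDN15, with a log2 fold change of 0.33 (SE 0.0809) and an adjusted p of 0.0501, and CLDN23, with -0.41 and an adjusted p of 0.35 (edgeR). CLDN15 was at 17.4, 18.7 and 16.8 CPM in pcCon and at 21.5, 22.5 and 21.8 CPM in pcYY2, without overlap, and lay just outside the threshold. With DESeq2's size factors in edgeR, CLDN15 was called higher (adjusted p = 0.0497, log2 fold change 0.33). It was not called in the other 12 alternatives, and its adjusted p over all 13 lay between 0.0497 and 0.141.

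Of 37 other tight junction genes, 30 were tested, 4 fell and none rose, beside 4.85% lower over all genes. AMOTL2, an angiomotin-like scaffold that also binds the Hippo pathway's YAP, was at 38.2, 38.6 and 36.9 CPM in pcCon and at 20.2, 18.7 and 20.5 CPM in pcYY2, a log2 fold change of -0.92 (SE 0.0694, adjusted p = 0.00182, edgeR). Its relative AMOT fell by 0.52 on the log2 scale (SE 0.111, adjusted p = 0.0346, edgeR). CGNL1, the junctional scaffold paracingulin, fell by 0.71 (SE 0.114, adjusted p = 0.0167, edgeR), and PARD6G, a polarity protein, by 0.44 (SE 0.0969, adjusted p = 0.0376, edgeR). In all 4 genes every pcYY2 sample lay below every pcCon sample. Groups of CPM did not overlap in 11 of the 30 tested genes of this list, beside 35.8% of all tested genes. The count of 4 was also 4 without pcYY2 sample 1, and it was 1 or 2 without any other sample, AMOTL2 being the gene that passed in every fit.

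With the other claudins, 32 of 55 genes were tested, the median log2 fold change was -0.10 and 10 lay above and 22 below 0, with 12 at an unadjusted p under 0.05. Over all 12015 tested genes 6049 lay above and 5966 below 0, and 28.9% had an unadjusted p under 0.05. None of the 32 tested genes was called higher, except CLDN15 with DESeq2's size factors, which made 5 genes called in place of 4.

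**Figure D3:**
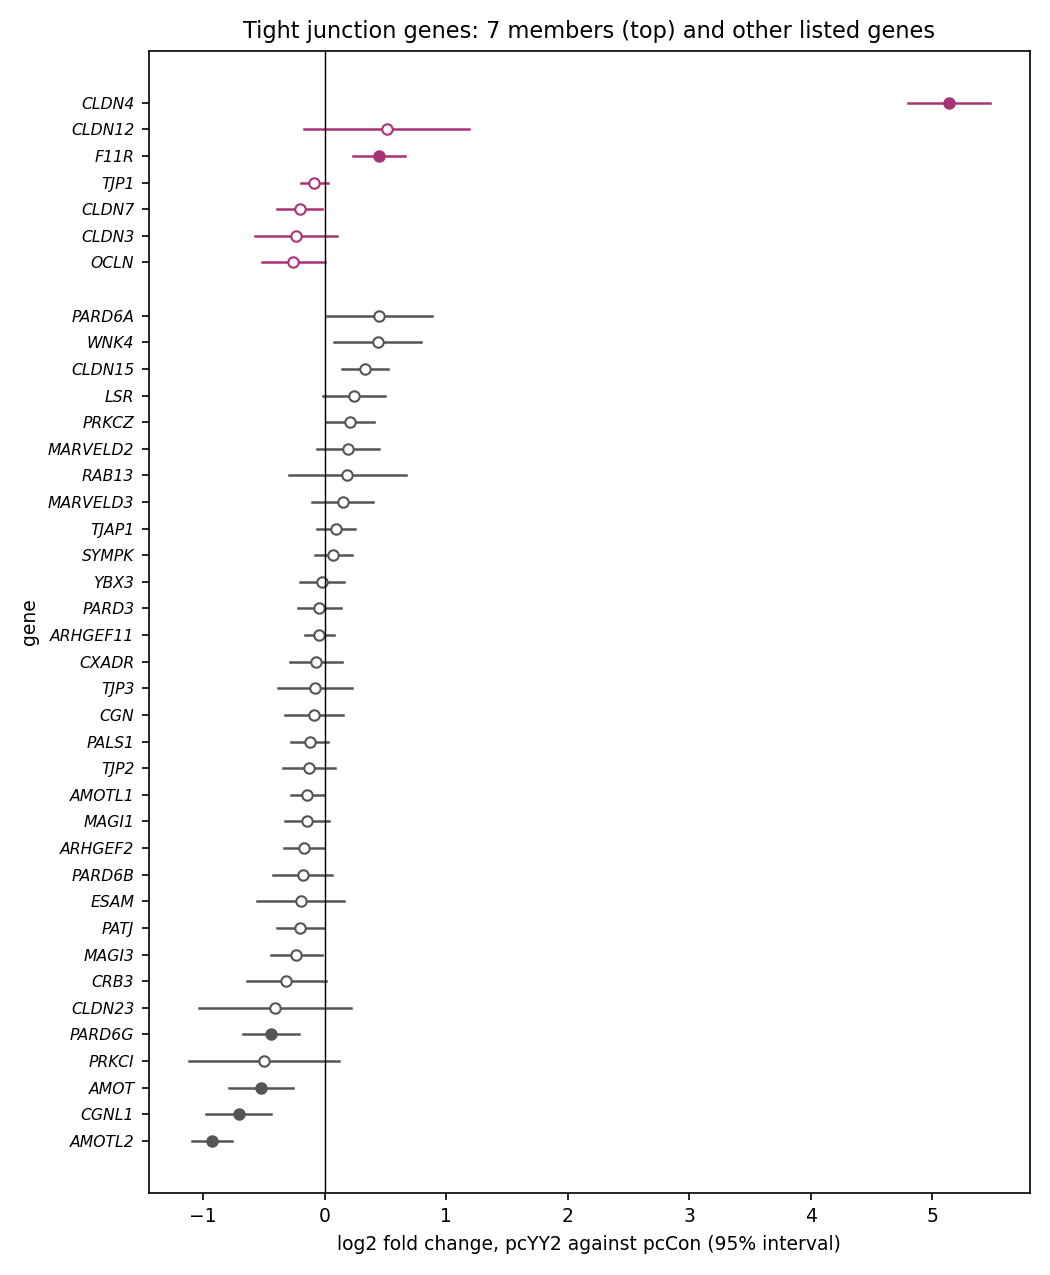
Log2 fold change of pcYY2 against pcCon (horizontal axis) for the 7 tested members and the 32 other tested claudins and tight junction genes, with 95% intervals and filled points for genes that passed. CLDN4 stands at 5.14, the other members at -0.26 to 0.51, and the genes that fell reach -0.92.

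Among 22 genes of adherens junctions and desmosomes, 19 were tested and 2 fell, none rose, beside 9.37% called and 4.85% lower over all genes, so the count is close to that of all genes. CTNNB1, the β-catenin that links cadherins to actin, fell by 0.18 (SE 0.0415, adjusted p = 0.0433, edgeR), and DSP, desmoplakin, by 0.15 (SE 0.0357, adjusted p = 0.0497, edgeR). Both changes are small, and neither gene passed when any 1 sample was left out. The median of the list was 0.09. Its largest difference was that of CTNND1, the p120-catenin that binds cadherins, named here after its values were seen. CTNND1 was at 196, 168 and 189 CPM in pcCon and at 390, 206 and 390 CPM in pcYY2, with sample 2 close to the pcCon samples though above them. Its log2 fold change was 0.85 (SE 0.232) and did not pass (adjusted p = 0.0648, edgeR). Without pcYY2 sample 2 it was 1.09 and passed (adjusted p = 0.00622, edgeR), as did the desmosomal genes DSC3 and PERP, likewise named after their values were seen, at 0.45 and 0.21, all higher in pcYY2. CTNND1 was also called by DESeq2 and without a filter, and its adjusted p over the 13 alternatives lay between 0.00622 and 0.169. For EPCAM, an adhesion protein that binds and stabilizes claudins, the log2 fold change was 0.10 and did not pass (adjusted p = 0.139, edgeR).

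Of 23 transcription and splicing regulators of epithelial genes, 12 were tested, 1 rose and 2 fell, beside 4.52% higher and 4.85% lower over all genes. EHF, an ETS factor of epithelial cells, was at 28.3, 28.3 and 28.2 CPM in pcCon and at 38.3, 36.5 and 37.5 CPM in pcYY2, a log2 fold change of 0.42 (SE 0.0597, adjusted p = 0.0119, edgeR). GRHL1, a Grainyhead-like factor, fell by 0.66 (SE 0.125, adjusted p = 0.0263, edgeR), and ESRP2, an epithelial splicing regulator, by 0.37 (SE 0.0860, adjusted p = 0.0438, edgeR). The list's count was 0 when any 1 pcCon sample was left out, 1 (EHF) without pcYY2 sample 1 or 3, and 2 (EHF and GRHL1) without pcYY2 sample 2.

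The region around the pair was examined to ask whether CLDN4 was higher together with its surroundings. Of the genes within 500 kb of either end of CLDN4, 15 besides CLDN3 were tested. None of these 15 was differentially expressed by edgeR, DESeq2 or limma, beside 9.37% of all tested genes by edgeR. With only 15 genes, a count of none is close to that share, and nothing is read from it. By edgeR, 1 of the 15 had an unadjusted p under 0.05, beside 28.9% of all tested genes. The log2 fold changes of the 15 lay between -0.19 and 0.34, with a median of 0.05 and a lowest adjusted p of 0.146 (edgeR). ABHD11, the tested gene on the CLDN3 side, was at -0.05 (SE 0.163, adjusted p = 0.86, edgeR), and METTL27, on the CLDN4 side, at 0.15 (SE 0.185, adjusted p = 0.64, edgeR). CLDN4, which was chosen for its rise in this comparison, was the only gene tested in this stretch of chromosome 7 that passed.

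**Figure D4:**
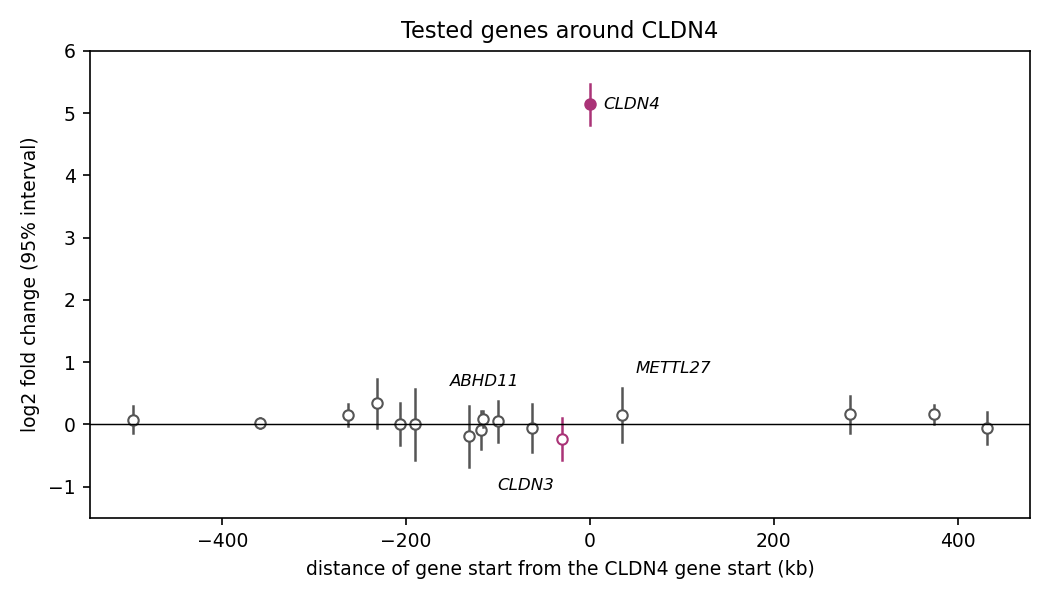
Log2 fold change (vertical axis, with 95% intervals) of the tested genes around CLDN4 against their distance from its start in kilobases (horizontal axis). CLDN4 lies at 5.14, CLDN3 at -0.24 and the 15 others between -0.19 and 0.34.

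The genes whose profile over the 6 samples was most like that of CLDN4, by the root mean square difference of centred log2(CPM + 1) among 12015 genes, were YY2 (1.22), DGKH (1.38) and SPIN1 (1.41). The range of CLDN4 itself over the samples was 4.89 on the same scale, so even the nearest profile is far from it. For CLDN3, whose range was 0.49, ANKZF1 (0.0378) and TCF7L1 (0.0415) were among the nearest.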

How the data were processed

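RNA-Seq of HCT116 cells had been done on polyA RNA, and the authors mapped reads with Tophat to GRCh38 and obtained FPKM with Cufflinks. The processing notes also list Bowtie2 and HTSeq. The deposited counts are whole reads per gene without normalization, and how they were counted, and whether by strand, is not given in the sources used here. The deposited FPKM equals the count divided by a fixed gene length and the sample total (largest deviation 0.00377% over 13426 genes). The deposited FPKM is therefore a rescaling of these counts, whatever values the authors obtained with Cufflinks. Its lengths were 1.47 times those of GENCODE 44 exons in the median of 13337 genes.

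Counts were tested with edgeR 4.0.16 (R 4.3.3, TMM), without a replicate block. Alternatives were a mean FPKM of at least 0.1 or no filter, DESeq2's size factors, upper quartile scaling, DESeq2 1.42.0, limma 3.58.1 on log2(FPKM + 1), the block, and leaving out each sample. The tests were tried on simulated counts, drawn independently with the spread between samples fitted here, and no result rests on this trial. The members and lists were chosen with earlier results of these data known. Genes named are the members, YY2, EPCAM, the called genes of each list (at most 5), the neighbours beside the CLDN3 and CLDN4 pair and the 3 nearest profiles of each, of which 1 is not reported here. Values are given for the tested genes that overlap a member. Genes known to modify claudins are given as a count, with values for the called gene. Promoter sequences came from RefSeq. Raw reads and the authors' own tests were not used.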

Additional observations from a re-analysis of the deposited data

How the results depend on the processing

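The members were chosen from this comparison, so their calls in the alternatives are description only and no added support. CLDN4 was called in all 13 alternatives. Its log2 fold change was 5.004 to 5.20 when each sample was left out, and 2.75 by limma on log2(FPKM + 1), where the added 1 exceeds its pcCon FPKM and so compresses the change. CLDN3, CLDN7, OCLN and TJP1 passed in none of the 13, CLDN12 in 1 and F11R in 7. The replicate block gave 51 genes higher and 50 lower over all genes, 1 other tight junction gene, 0 adherens junction and desmosome genes and 0 epithelial regulators. Same-numbered samples did not deviate together (correlations of -0.0211 to 0.00942, and 0 of 6 samples correlated best with their own number). Whether they were handled as pairs is not given in the labels, and these correlations cannot show it. For adherens junction and desmosome genes the count was 0 at a mean FPKM of at least 0.1, 1 without a filter (CTNND1, higher) and 1 by limma (CTNNB1, lower). Leaving out each sample gave 138 to 413 genes higher and 147 to 394 lower over all genes, 1 to 4 other tight junction genes, 0 to 3 adherens junction and desmosome genes, 0 to 2 epithelial regulators and 0 to 0 genes around CLDN4. The median log2 fold change over all genes stayed between -0.0194 and 0.0025 in the alternatives. Depth limits CLDN1 and 16 other claudins, for which a change was not detectable.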

Other observations

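Of 7 genes known to modify claudins, 6 were tested and 1 passed, beside 9.37% of all tested genes. EPHA2, a receptor tyrosine kinase, was at 120, 119 and 119 CPM in pcCon and at 78.5, 81.5 and 77.6 CPM in pcYY2, a log2 fold change of -0.58 (SE 0.0476, adjusted p = 0.00225, edgeR). All 3 pcYY2 samples lay below all pcCon samples, and it also passed with the replicate block.

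Of the 5 epithelial markers, all tested, the keratins KRT8 and KRT19, intermediate filament proteins of simple epithelia, rose, beside 4.52% higher over all genes, with log2 fold changes of 0.67 (adjusted p = 0.0117, edgeR) and 0.60 (adjusted p = 0.00209, edgeR). EPCAM, CDH1 and KRT18 did not pass the test.

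CLDN12 overlaps GTPBP10 and CDK14 on the same strand, with log2 fold changes of -0.07 and -0.44, of which that of CDK14 passed (adjusted p = 0.0324, edgeR). On the opposite strand, CLDN7 overlaps ELP5, with 545 to 954 reads per sample and a log2 fold change of 0.01 (adjusted p = 0.958, edgeR). TJP1 overlaps the pseudogene HMGN2P5, also on the opposite strand, with 1018 to 2061 reads and 0.11 (adjusted p = 0.226, edgeR). The part of these genes in the counts of CLDN7 and TJP1 was not tested.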
